A study of Homo sapiens with 74 samples.

Results

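Distal arm peaks were the Cut&Run peaks of zinc-finger proteins (ZFPs) that lay far from genes' starts on the arms of chromosomes 1 to 22. A peak belonged to them when its summit was over 10 kb from every transcription start site (TSS) of the GENCODE 44 annotation of hg38 and over 5 Mb from the centromere. Of 92122 peaks in 72 lists, 9430 (10.2%) met both limits. Another 42775 peaks lay on the same arms with their summit within 1 kb of a TSS and served for comparison as near-TSS peaks, and 16835 lay within 5 Mb of a centromere. No measured height or significance entered the choice.

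HEK293T cells, an established line from human embryonic kidney, received a plasmid with one ZFP, tagged with V5 at its C-terminus and driven by the EF1-alpha promoter, and were used 48 h later. There were 36 ZFPs with 2 biological replicates each, and every replicate was grown in its own well. An antibody against V5 directed a nuclease to the tagged protein, and un-transfected cells put through the same procedure were the mock IP control against which each list was called. Every ZFP was therefore expressed from a plasmid, and the ZFPs of a batch shared a mock IP. Peak lists of the mock IP were not analysed here. The study's methods give one approximate sequencing depth for all libraries but no read total for each, and batches were not named. The lists held 15 to 8702 peaks.

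Sites far from TSSs are where many sequence-specific factors bind, at enhancers and at insulators. CTCF, a protein with a row of zinc fingers, holds chromatin loops and insulator boundaries and recognises a long, well-defined DNA motif, and many of its known sites are distal. Long stretches between genes and within introns also hold tandem repeats, in which one short unit follows itself many times. Such minisatellites are densest near chromosome ends, and the ends themselves carry the telomere repeat TTAGGG.

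The sequences of 4 of the 5 regions called for the most ZFPs show this class of DNA. Each is given 60 bases to either side of the summit with the highest fold, on the forward strand of hg38. Capitals mark a stretch as long as the step at which the sequence best matched itself.

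TMEM242 intron, chr6:157311585-157311705: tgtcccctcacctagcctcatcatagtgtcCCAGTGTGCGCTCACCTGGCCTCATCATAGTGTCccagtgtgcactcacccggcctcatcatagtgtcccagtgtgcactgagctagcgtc
PRKCA intron, chr17:66798769-66798889: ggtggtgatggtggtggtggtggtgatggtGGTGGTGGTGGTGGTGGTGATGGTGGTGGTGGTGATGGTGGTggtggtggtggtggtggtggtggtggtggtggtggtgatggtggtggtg
PTPRN2 intron, chr7:158147792-158147912: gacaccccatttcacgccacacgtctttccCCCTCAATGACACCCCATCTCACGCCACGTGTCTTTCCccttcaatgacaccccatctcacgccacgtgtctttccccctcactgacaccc
GALNT9 intron, chr12:132242974-132243094: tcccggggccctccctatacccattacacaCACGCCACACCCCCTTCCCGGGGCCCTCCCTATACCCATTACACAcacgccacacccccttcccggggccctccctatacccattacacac

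These steps were 34, 42, 38 and 45 bases, in that order, and a step can span several copies of a shorter unit, as in the PRKCA window. For CTCF, the 3 regions below are shown because they held a CTCF core, written here as CCANNAGNNGGC on either strand, within 100 bp of a summit in both CTCF replicates. Capitals mark the core, and each sequence is printed in the direction of the core.

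AKR1E2 intron, chr10:4815646-4815687, forward strand: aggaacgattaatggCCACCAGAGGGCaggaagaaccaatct
between genes near DUX4L2, chr4:190120635-190120676, forward strand: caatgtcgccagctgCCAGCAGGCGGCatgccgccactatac
between genes near CPZ, chr4:8630686-8630727, reverse strand: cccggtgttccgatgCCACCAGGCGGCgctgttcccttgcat

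The number of distal arm peaks differed widely between lists, from 0 to 1218 with a median of 61.5. They made up a median of 8.22% of a list. CISD1, a mitochondrial iron-sulfur protein, had 929 of 8702 peaks in replicate 1 (10.7%, exact 95% binomial interval 10 to 11.3) and 321 of 2633 in replicate 2 (12.2%, 11 to 13.5). CTCF had 249 of 3198 peaks (7.79%, 6.88 to 8.77) and 108 of 1740 (6.21%, 5.12 to 7.45). ZNF574, a C2H2 ZFP, had high shares in both replicates, with 135 of 896 peaks (15.1%) and 132 of 756 (17.5%). ZC3H3 had 102 in replicate 1 and none among the 15 peaks of replicate 2, where a count of 0 allows a share of up to 20% by the limit of 3 counts and up to 21.8% by the exact interval. These intervals and limits cover counting error only.

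**Figure D1:**
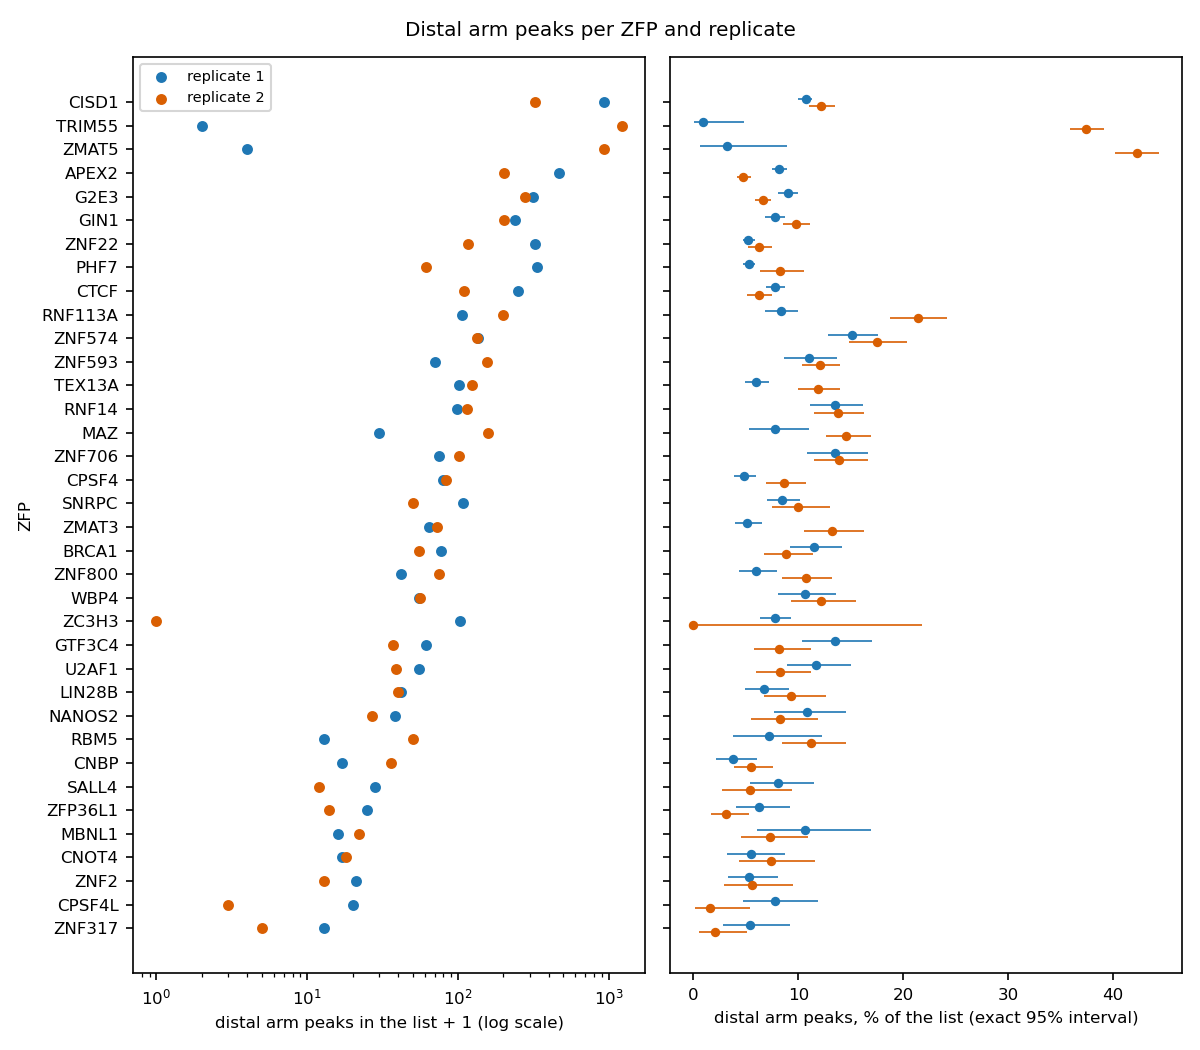
Distal arm peaks per ZFP. The left panel gives the number in each list plus 1 on a log axis, and the right panel their share of the list in percent with the exact 95% binomial interval, with replicate 1 in blue and replicate 2 in orange. Replicate 2 of TRIM55 (1218) and of ZMAT5 (927) lie far to the right of their own replicate 1 lists (1 and 3).

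The second replicates of TRIM55 and ZMAT5 stood apart. Replicate 2 of TRIM55, a muscle RING-finger protein, held 1218 distal arm peaks (37.5% of the list) and replicate 2 of ZMAT5, a component of the minor spliceosome, held 927 (42.3%), whereas no other list exceeded 21.4%. The median fold of their distal arm peaks was 2 in both lists, against 2.99 to 5.59 in the other lists, where fold means the tagged library's signal at the summit divided by that of the mock IP. Their median GC content was 40.8% and 41.3%, close to the 38.8% of windows spaced evenly over the allowed territory, and none of their peaks overlapped a peak of the other replicate. The cause was not tested. Together they held 22.7% of all distal arm peaks, so the descriptions below are given for the other 70 lists (7285 peaks) where pooled, with the value over all 72 lists beside the main ones.

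Introns and intergenic DNA held nearly all distal arm peaks. Of the 7285 peaks, 52.9% had their summit in an intron, 42% between genes and 5.05% in an exon (53.3%, 42.3% and 4.37% over all 72 lists). The allowed territory, 1450485944 bases or 52.6% of the sequenced bases of chromosomes 1 to 22, was 53.3% intron, 45% intergenic and 1.7% exon. The intron share was thus close to that of the territory. Introns of protein-coding genes held 44.6% of the peaks and 37.3% of the territory. Over the 31 ZFPs with at least 10 distal arm peaks in each list, the mean intron share was 55.1% ± 6.68 (SD, n = 31). Replicates of one ZFP differed by about as much, with an SD within ZFPs of 9.66 percentage points.

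As a mean over replicates, CTCF had the lowest intron share of these 31 ZFPs, with 40.6% in replicate 1 and 39.8% in replicate 2, and 55% and 55.6% of its peaks between genes. Single lists were lower, 27.3% in SALL4 replicate 2 and 23.1% in ZFP36L1 replicate 2, which held 11 and 13 distal arm peaks. ZNF2 was highest at 71.7% ± 16.5 (SD, n = 2), from lists of only 20 and 12 distal arm peaks. The replicates differed most for ZFP36L1, an RNA-binding protein of AU-rich elements, where 18 of 24 peaks of replicate 1 but 3 of 13 of replicate 2 were intronic.

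Many peaks lay close to the 10 kb limit. The nearest TSS was 10 to 20 kb away for 49% of the 7285, 38.3% lay 20 to 50 kb away, and 3.23% over 100 kb away. Just within the class, 1118 peaks had a TSS 10 to 12 kb away. They had a median fold of 4.64, and 59.3% were intronic, 7.6% exonic and 36.4% on a tandem repeat. Just excluded from it, 1320 peaks with a TSS 8 to 10 kb away had a median fold of 4.73, with 48.8% intronic, 12.4% exonic and 28.1% on a tandem repeat.

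Tandem repeats were common among the distal arm peaks. A peak was counted as lying on one when at least 70% of the bases within 150 bp of the summit equalled the base one fixed step of 2 to 100 bp further on, a measure chosen after these data were seen and therefore given without a test. By this measure 36.1% of the 7285 peaks lay on a tandem repeat (28.1% over all 72 lists), against 1.27% of near-TSS peaks, 33.8% of pericentromeric peaks and 0.215% of 481769 windows spaced evenly over the allowed territory. A place called in several lists counted several times among the peaks, whereas each window counted once. The best-matching step had a median of 38 bp, with quartiles of 26 and 49 bp. Peaks within 5 Mb of a chromosome end made up 42.5%, against 18.9% of near-TSS peaks and 5.78% of the windows, and 70.2% of the tandem repeat peaks lay there. Of the windows near chromosome ends, 1.66% were tandem repeats. The median GC content of the 7285 peaks was 59.2%, between the windows and the near-TSS peaks (69.2%).

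A pair of simple repeats was counted within 100 bp of the summit. The telomere hexamer, at least 5 copies of TTAGGG on either strand, was present in 136 peaks (1.87% of the 7285), all in the 70 lists, against 0.00125% of windows. These peaks were repeated calls of few places. When overlapping peaks were merged, regions with the hexamer numbered 3 for 1 ZFP, 1 for 2 to 4 ZFPs and 4 for at least 5 ZFPs. Satellite-like sequence, at least 5 copies of the pentamer GGAAT on either strand, was present in 69 (0.947%), 67 of them intergenic. Over the 31 ZFPs the satellite-like share was 1.26% ± 2.49 (SD) of distal arm peaks and 0.104% ± 0.381 of near-TSS peaks. The mean difference was 1.16 percentage points, with 15 ZFPs higher, 1 lower and the rest equal (two-sided paired permutation test, 100000 sign changes, p = 0.0001, Benjamini-Hochberg adjusted p = 0.0003 over 3 paired comparisons). This test took ZFPs as independent, although ZFPs of a batch shared a mock IP. The same places also recurred between ZFPs, since 4 satellite-like regions at chr20:60301-67128 were called for 5 to 8 ZFPs each. ZNF800 had the highest mean satellite-like share, 11.9%, from 7 of 41 peaks in replicate 1 (17.1%) and 5 of 74 in replicate 2 (6.76%). RBM5 replicate 2 had 10.2%.

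The tandem repeat share separated the ZFPs. It was at least 79% in both lists of RNF14, a RING-finger ubiquitin ligase, of ZNF574, ZNF706 and ZNF800, and of GTF3C4, a subunit of the RNA polymerase III factor TFIIIC. RNF14 had 84.5% in replicate 1 and 82.5% in replicate 2. GTF3C4 had 81.7% and 83.3%. ZNF800 had 82.9% and 81.1%. At the other end, CTCF had 10.8% and 10.2%, the lowest mean of the 31. Every one of the 31 ZFPs had a higher share among its distal arm than among its near-TSS peaks, 43.8% ± 21.3 against 6.46% ± 6.77 (SD, n = 31).

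Replicates differed for some ZFPs in between. The share was 9.35% in replicate 1 of ZNF22 and 36.5% in replicate 2, and it was 6.67% and 52.4% for MBNL1, a splicing regulator whose lists held 15 and 21 distal arm peaks. Over the 31 ZFPs the 2 replicates' shares had a Pearson r of 0.67 and a Spearman rho of 0.61, and r was 0.60 without RNF14 and ZNF800, the 2 ZFPs farthest from the median in replicate 1. These are descriptions, since the length of the lists varied with the ZFPs too. The intron shares of the 2 replicates had an r of -0.04.

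**Figure D2:**
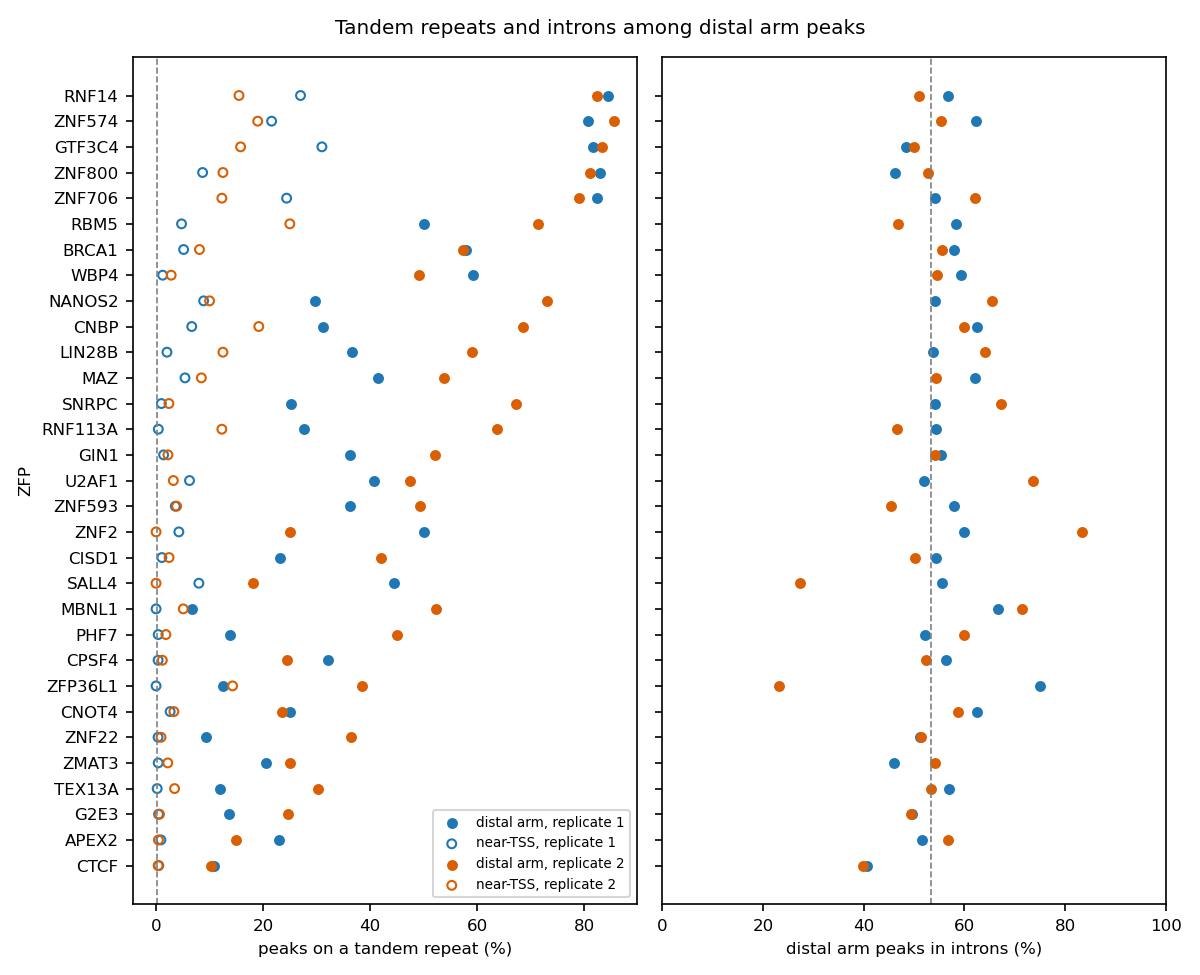
Tandem repeats and introns by ZFP, for the 31 ZFPs with at least 10 distal arm peaks in each list. The left panel gives the percent of distal arm peaks (filled) and near-TSS peaks (open) on a tandem repeat and the right panel the percent of distal arm peaks in introns, by replicate. Dashed lines are the evenly spaced windows (0.215%) and the allowed territory (53.3%), and CTCF has the lowest mean over both replicates in both panels, with single lists of other ZFPs lower.

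Replicate overlap was lower for distal arm than for near-TSS peaks. Of all distal arm peaks, 1339 (14.2%) had a counterpart in the other replicate, meaning any peak that shared 1 bp or more with it. In the 70 lists 18.4% did. Pooled over all 72 lists, the share was 20.7% for near-TSS peaks, 48.6% for pericentromeric peaks and 26.3% for all 92122 peaks. For each ZFP the share was taken in the replicate with fewer peaks of the class. It averaged 28.8% ± 16.3 for distal arm and 37.8% ± 19.6 for near-TSS peaks (SD, n = 31), a difference of -9.06 percentage points, with 25 ZFPs lower and 6 higher (two-sided paired permutation test, p = 0.00163, adjusted p = 0.00244). GTF3C4 had the highest value, 26 of 36 peaks (72.2%), followed by ZNF574 with 78 of 132. SALL4, a stem cell transcription factor, had the widest gap, 27.3% of its distal arm and 78.6% of its near-TSS peaks. TEX13A had 4 of 100.

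The comparison depended on the TSS annotation, the peak threshold and the comparison class. In the same permutation test it lost the 0.05 threshold with TSSs of protein-coding genes only (-3, p = 0.224), with peaks of q at most 0.001 (-4.42, p = 0.0787) and with near-TSS peaks taken within 10 kb (-4.45, p = 0.076). When the gap beside the centromere was not counted as centromere it turned to 6.01 (permutation p = 0.113). Without tandem repeat peaks, an alternative added after the data were seen, the difference widened to -16.9 over 24 ZFPs (permutation p = 1e-05).

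**Figure D3:**
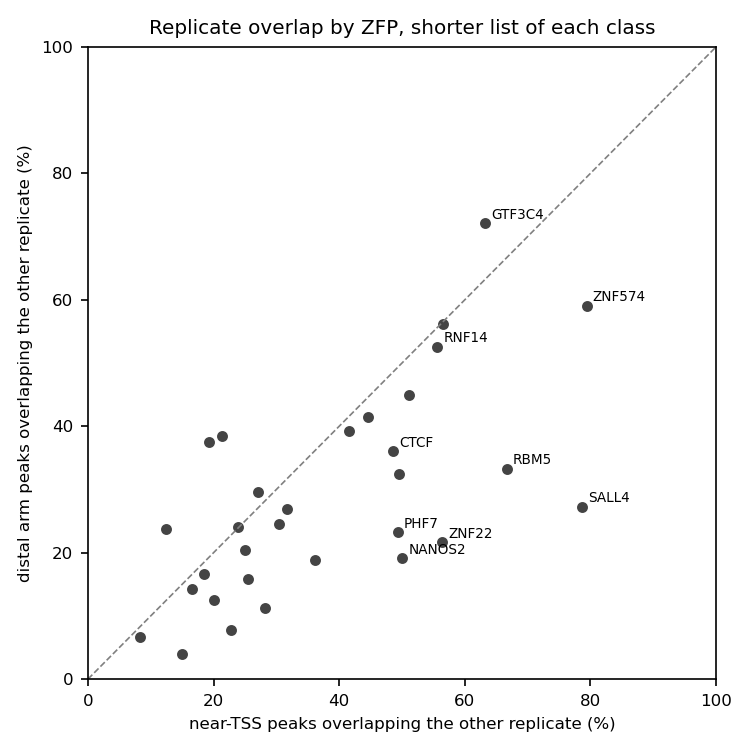
Replicate overlap of the 31 ZFPs. Each point is one ZFP, with the percent of near-TSS peaks that overlap the other replicate on the horizontal axis and of distal arm peaks on the vertical axis, each in the shorter list of that class. The dashed line marks equal shares, and 25 of 31 points lie below it.

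Peaks found in both replicates were mostly tandem repeats. In the 70 lists 68.4% of the 1339 distal arm peaks with a counterpart lay on a tandem repeat, against 28.9% of the 5946 without. Put the other way, 34.8% of tandem repeat peaks and 9.09% of the others had a counterpart. By ZFP, ZNF574 had 72 of its 190 merged regions called in both replicates (37.9%), GTF3C4 24 of 69, RNF14 45 of 160, CTCF 37 of 317 and CISD1 98 of 1146.

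The height of distal arm peaks differed little from that of near-TSS peaks. Their median fold over the mock IP was 4.72 in the 70 lists, with quartiles of 4.15 and 5.43, and that of near-TSS peaks over all lists was 5.06. Within lists the median log2 fold was 2.27 ± 0.0827 for distal arm and 2.41 ± 0.26 for near-TSS peaks (SD, n = 31 ZFPs), a difference of -0.13 ± 0.30 on the log2 scale, lower in 28 of 31 ZFPs (two-sided paired permutation test, p = 0.00688, adjusted p = 0.00688). The difference was within the SD between ZFPs and did not hold in the permutation test without replicate 1 (-0.05, p = 0.273), with at least 20 peaks a class (-0.04, p = 0.216), beyond 20 kb (-0.08, p = 0.0574) or at q of at most 0.001 (-0.09, p = 0.152).

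The highest distal arm folds belonged to the transfected genes themselves. 33 distal arm peaks of 9 ZFPs lay on exons of the ZFP's own gene, with folds of 195 to 3561. LIN28B, which blocks maturation of let-7 miRNAs, had folds of 3561 and 2569 at the exon at chr6:105078411-105078811. BRCA1, a DNA repair protein, had 1937 and 1957 at its large exon at chr17:43090944-43093965. WBP4, a splicing factor, had 2748 in replicate 1 and 1161 in replicate 2 at chr13:41076039-41076279. All are exons that lie over 10 kb from any annotated TSS, and the control cells received no plasmid. No distal arm peak lay on an exon of EEF1A1, whose promoter the plasmid carries, or on an annotated pseudogene of an own gene. The distance rule bears on this count, since pseudogenes have annotated TSSs of their own. A summit on a gene shorter than 10 kb cannot qualify, so the count says nothing about signal from the plasmid there. The lists labelled U2AF1 had no own-gene peak among their distal arm peaks and folds of at most 8.97. Most ZFPs lacked such a peak, since only 9 of the 36 had one.

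The same exons appeared at lower folds in lists of other ZFPs. The LIN28B exon was called in both replicates of CNBP (6.3 and 6.15), of SALL4 (9.63 and 12.4) and of ZFP36L1 (6.83 and 9.81). The BRCA1 exon was called in 5 lists, one each of APEX2, SNRPC, TEX13A, WBP4 and ZMAT3, with folds of 4.13 to 10.8. In all, 12 peaks of 9 other ZFPs lay in 3 of the 19 own-gene regions. The cause was not tested.

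Apart from own-gene exons only 84 of 9397 distal arm peaks (0.894%) reached a fold of 10, and 2 reached 50. These were the 2 replicates of SNRPC, the U1 snRNP protein U1-C, at one place in an intron of a long noncoding RNA at chr4:4057897-4058068, with folds of 55.7 and 53.6. Around 43% of its 25-base words also occur in SNRPC transcripts (43.2% and 43.5% of the words of the 2 peaks). The bases below are part of that peak on the forward strand, and capitals mark bases covered by words shared with SNRPC transcripts.

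SNRPC-like bases, chr4:4057897-4057999: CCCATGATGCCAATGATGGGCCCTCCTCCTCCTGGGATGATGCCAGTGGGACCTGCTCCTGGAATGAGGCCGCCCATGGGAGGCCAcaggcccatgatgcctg

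Next in height, by the lower fold of both replicates, was one intronic region of HFM1, a meiotic helicase, at chr1:91387245-91387569. CISD1 had folds of 30.7 and 35.2 there, G2E3 24.9 and 20, and GIN1 20.9 and 13.1. It was called for 22 ZFPs in 36 lists, with a lowest fold of 2.49, a median of 8.42 and a highest of 35.2. Of the 25-base words of each of these peaks 93.9% to 100% also occur in the 45S ribosomal RNA genes of RefSeq. All bases of the window below, on the forward strand, were covered by such words and are in capitals.

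HFM1 intron, chr1:91387309-91387429: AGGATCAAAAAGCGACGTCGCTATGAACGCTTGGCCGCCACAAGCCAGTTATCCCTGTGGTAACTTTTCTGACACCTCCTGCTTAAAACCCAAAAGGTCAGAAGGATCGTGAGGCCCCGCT

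In all 48 distal arm peaks in 3 regions shared at least 50% of their words with ribosomal RNA genes. The other regions were an intron of SLCO5A1 with 8 ZFPs and folds of 3.11 to 22.2, and an intergenic stretch of chromosome 5 with 2 ZFPs. The remaining region among the highest in both replicates was on an exon of NR5A1, a steroidogenic transcription factor, where GTF3C4 had folds of 20.8 and 17.9 and one more ZFP had a peak.

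Transfer RNA genes are not among the GENCODE TSSs, so some distal arm peaks lay on them. Of the distal arm peaks 36 (0.382%) in 12 ZFPs overlapped one of the 439 tRNA genes that RefSeq lists on chromosomes 1 to 22, against 0.231% of all peaks. Most lay in one cluster at chr1:161453843-161458567. Distal arm peaks of 17 ZFPs in 27 lists merged into this region, with folds from 2.98 to 8.59, and not all of them overlapped a tRNA gene. There APEX2, an endonuclease, had the highest fold in replicate 2.

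Overlapping distal arm peaks of all 72 lists were merged to see which places several ZFPs had in common. This gave 6464 regions, of which 5858 were called for 1 ZFP and 162 for at least 5. That is 2.51%, below the 9.59% of 36731 regions made from all peaks of the series. Without regions found only in the replicate 2 lists of TRIM55 and ZMAT5, 4334 of the 6464 remain. 53 regions were called for at least 10 ZFPs, 13 for at least 20 and 3 for at least 30. A region counts a ZFP when either replicate had a peak, and in 30 regions at least 5 ZFPs had one in both replicates. Since ZFPs of a batch were called against the same mock IP, their peaks are not independent. Leaving out replicate 1 gave 93 regions and leaving out replicate 2 gave 87.

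The shared regions were mostly tandem repeats near chromosome ends. Of the 162, 82 lay in introns, 73 between genes and 7 on exons, about the same places as regions of 1 ZFP. Tandem repeats were 73.5% of the 162 regions, 38.1% of the 444 regions of 2 to 4 ZFPs and 6.09% of those of 1 ZFP (9.28% without the TRIM55 and ZMAT5 lists that stood apart). The share within 5 Mb of a chromosome end was 64.2%, 48.9% and 20.5% in the same order (28.3% for the last without those 2 lists). Without tandem repeat peaks 44 regions reached 5 ZFPs. By construction a wider region has more chance to overlap, and the median width was 677 bp for the 162 regions and 198 bp for those of 1 ZFP.

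**Figure D4:**
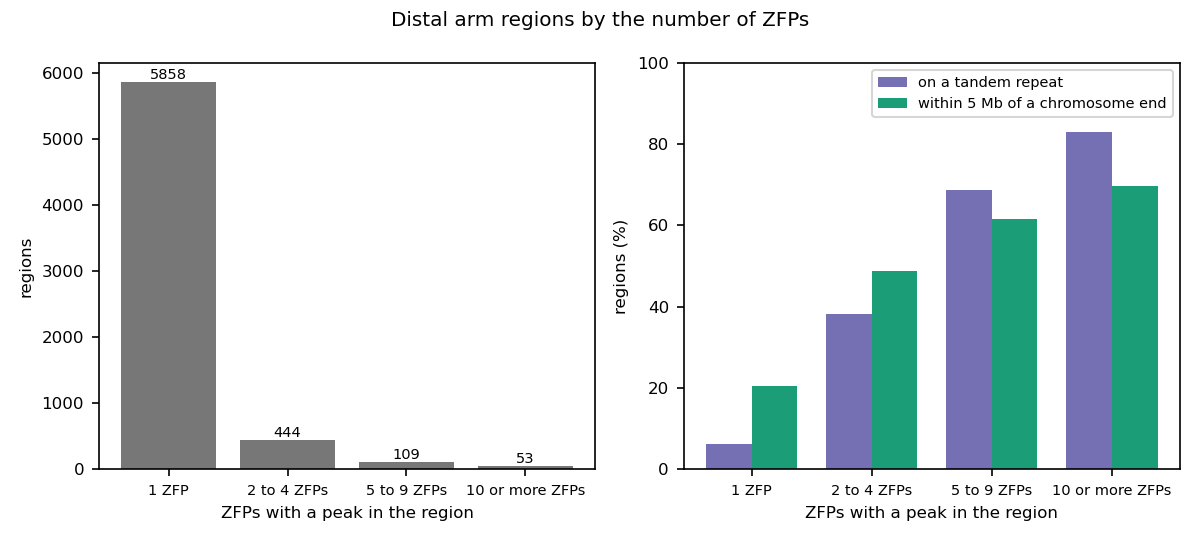
Distal arm regions by the number of ZFPs with a peak in them. The left panel counts regions and the right panel gives the percent on a tandem repeat (purple) and within 5 Mb of a chromosome end (green). Regions of 1 ZFP number 5858 with 6.09% on a tandem repeat, and the 53 regions of 10 or more ZFPs have 83%.

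The region in TMEM242 at chr6:157310434-157313684 was called for 34 ZFPs in 61 lists, and for 27 of the ZFPs in both replicates. Its fold was 2.33 at the lowest (LIN28B replicate 1), 5.52 at the median and 9.41 at the highest (ZNF574 replicate 1). Only ZMAT5 and ZNF317 had no peak there. It lay 13494335 bases from the chromosome end, so not every widely shared repeat was near an end.

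The region in an intron of PRKCA, which encodes protein kinase C alpha, at chr17:66798396-66799619, was called for 31 ZFPs in 47 lists. Its folds were 3.82 at the lowest, 7.66 at the median and 19.7 at the highest, the last in CISD1 replicate 1. The region in PTPRN2, a phosphatase of secretory vesicles, at chr7:158146988-158149152, had 29 ZFPs and 50 lists at low folds of 1.89 to 5.96, and CTCF was among the 7 ZFPs without it. The region in GALNT9, a glycosyltransferase gene, at chr12:132240914-132243259, had 24 ZFPs and 39 lists with a median of 6.06. GTF3C4, RNF14, ZNF706 and ZNF800, which with ZNF574 had the highest mean tandem repeat shares, were among the 12 without a peak there. Next by mean share, RBM5 (60.7%) also had none, whereas BRCA1 (57.7%), WBP4 (54.2%) and NANOS2 (51.4%) had a peak there.

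Some genes held several shared regions. TTC34 on chromosome 1 had 8 in its introns, and PTPRN2 had 5 of its 49 regions among the shared ones. SMOC2, an extracellular calcium-binding protein, had 3 of 9. In all 57 protein-coding genes held a shared region and 8 held more than 1. Of the shared regions 4 carried telomere hexamers, on chromosomes 4, 5, 12 and 18, and another 4 were satellite-like, all on chromosome 20.

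The ZFPs drew on the shared regions to different degrees. CISD1 had a peak in 130 of the 162, ZNF574 in 97, GIN1 in 96 and CTCF in 39. As a share of a list's distal arm peaks, the shared regions held 81.7% and 83.3% for GTF3C4, 75.6% and 85.1% for ZNF800, 12.5% and 31.5% for CISD1, and 14.5% and 15.7% for CTCF. In TRIM55 and ZMAT5 replicate 2 they held 0.328% and 0.431%. The lists of GTF3C4 and ZNF800 held only 36 to 74 distal arm peaks.

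CTCF was compared with the other ZFPs for its own motif. The core CCANNAGNNGGC, a part of the known CTCF site, was searched on both strands within 100 bp of the summit. It was present in 25 of 249 distal arm peaks of CTCF replicate 1 (10%, exact 95% binomial interval 6.6 to 14.5) and in 12 of 108 of replicate 2 (11.1%, 5.87 to 18.6). The mean was 10.6% ± 0.757 (SD, n = 2). The other 30 ZFPs averaged 1.42% ± 1.02 (SD, n = 30) and reached at most 3.72% as a mean over both lists (LIN28B). The highest single list of another ZFP was CNOT4 replicate 1, with 1 of 16 peaks (6.25%). The background was 1.82% of all peaks of the series, 1.61% of all distal arm peaks and 0.428% of evenly spaced windows.

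The difference of 9.15 percentage points was the largest of the 31 possible when each ZFP in turn took the place of CTCF (exact permutation test over ZFPs, one-sided, p = 0.0323, the smallest this design allows). Benjamini-Hochberg adjustment over 7 measures gave 0.226, which that design cannot bring under 0.05. With the 62 lists permuted instead, p was 0.000529, a value that counts lists singly rather than ZFPs. The stricter core CCANNAGGNGGC gave a difference of 5.07 and a window of 50 bp to each side 6.65, both with p = 0.0323 in the exact test over ZFPs.

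**Figure D5:**
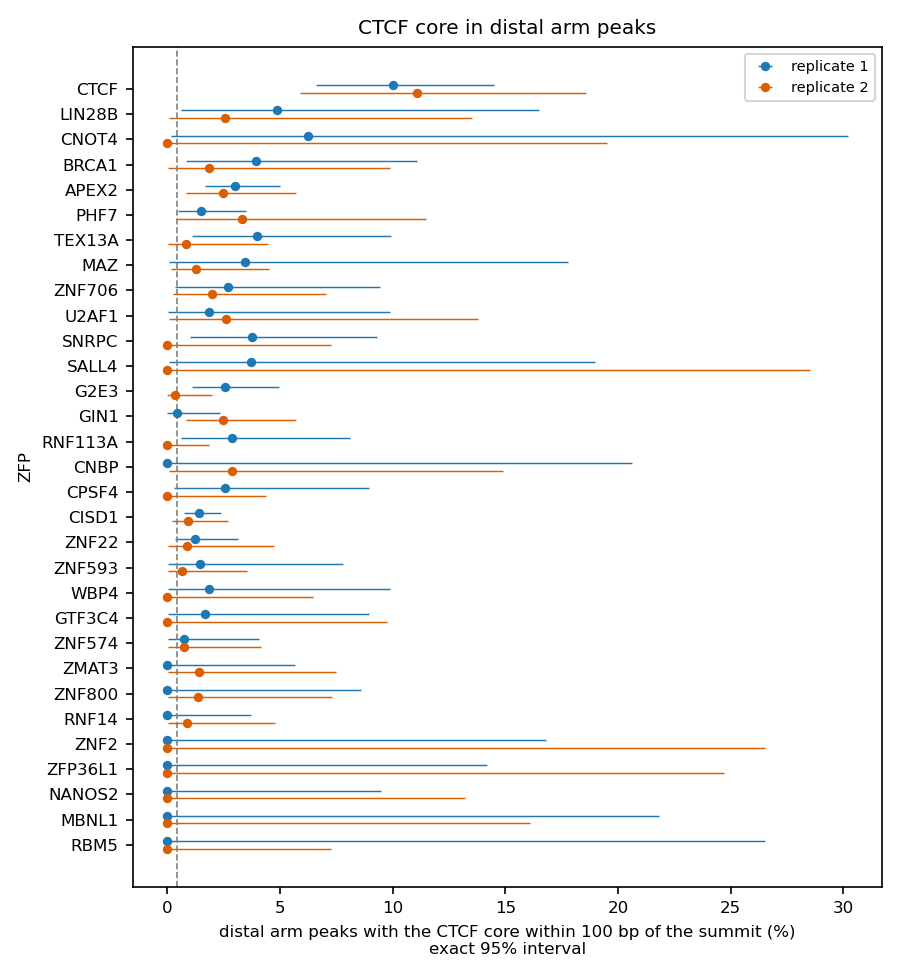
CTCF core in distal arm peaks of the 31 ZFPs. Points give the percent of a list's distal arm peaks with the core within 100 bp of the summit, with exact 95% binomial intervals, and the dashed line is the share of evenly spaced windows (0.428%). CTCF is highest at 10% and 11.1%, and many intervals of short lists reach above these values.

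The core was not most frequent in distal arm peaks within the CTCF lists. It was present in 4.65% of 1998 and 6.86% of 1035 near-TSS peaks, and in 14.9% of 495 and 15.9% of 271 arm peaks over 1 kb and up to 10 kb from a TSS. In pericentromeric peaks it was 4.39% and 5.31%. Of the 37 distal arm peaks with the core, 75.7% lay between genes and 21.6% in introns, against 52.8% and 42.5% of the 320 without it. Their median fold was 5.5 against 5.04, and 27% against 21.2% had a counterpart in the other replicate. One of the 37 was on a tandem repeat. These are counts over peaks and carry no test.

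Of the other measures tested between CTCF and the other 30 ZFPs, none passed 0.05. The intron share was 40.2% against 55.6% ± 6.18 (exact permutation test over ZFPs, two-sided, p = 0.0645, adjusted p = 0.226). The share of the list that was distal was 7% against 9.23% ± 2.94 (p = 0.548 by the same exact test). The median log2 fold was 2.36 against 2.27 ± 0.08 (p = 0.161), the mean GC content 58.6% against 57.2% ± 3.22 (p = 0.71), the replicate overlap 25.9% against 22.7% ± 13.5 (p = 0.774) and the satellite-like share 0% against 1.31% ± 2.52 (p = 0.677), each by the same exact test. The tandem repeat share (10.5% against 44.9% ± 20.7) and the share near chromosome ends (15.3% against 45% ± 12.8) had their lowest means in CTCF of the 31 ZFPs and were not tested.

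Only 3 CTCF regions had the core near a summit in both replicates, those printed above, and none of them was called for another ZFP. The AKR1E2 intron had folds of 11.7 and 12.1, the site near DUX4L2 had 6.08 and 7.74, and the site near CPZ had 5.98 and 4.97. The first is the one with the higher folds in both replicates. The site near DUX4L2 lay 93935 bases from the end of chromosome 4, and was not on a tandem repeat by the 70% measure.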

How the data were processed

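Cut&Run peak lists of 36 ZFPs with 2 replicates each were used, mapped from the labels. Per the study's methods and processing notes, trimming (Trimmomatic 0.36) preceded alignment to hg38 by bowtie2 2.3.5.1, with pairs spanning 10 to 700 bp. Picard 0.1.8 removed duplicates. MACS2 2.2.7.1 then called each library's narrow peaks against its batch's mock IP, with 0.05 as the FDR threshold. The deposited fold is a ratio of signals at the summit, and the deposited -log10 p and -log10 q values and the score are those of the peak caller. Whether reads that fit several places were kept was not given in the sources used here, which bears on every value for repeats.

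The members, lists and measures were chosen with earlier results of these data known. The tandem repeat, chromosome end, tRNA and ribosomal RNA measures were added after the values were seen. Distances were taken from summits to GENCODE 44 TSSs. Centromeres were read from the sequence, as blocks with 171-bp alpha satellite periodicity joined to adjoining gaps of at least 1 Mb, since no band table was used. Place was exon before intron before intergenic. Tests ran over ZFPs with at least 10 peaks of each class in each list, with 100000 sign changes for paired tests and full enumeration for CTCF, and Benjamini-Hochberg adjustment. P-values measure the spread between ZFPs, except those with lists permuted or with the replicate number as a block, which took lists singly. Regions were named by sharing (5, of which 1 is not reported here), by the CTCF core in both replicates (up to 5, 3 found) and by the lower fold of both replicates (5, at most 1 a ZFP, away from own-gene exons), with all own-gene members. Where 3 ZFPs took the same region it was described once. Regions of ZMAT3 are counted but not described. Software was bedtools 2.31.1 and Python 3.11.15 with pysam 0.24.0, pandas 2.3.3, scipy 1.17.1, matplotlib 3.10.9 and numpy 2.4.6, and the procedures were tested on simulated data. Alternatives are given in the closing section.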

Additional observations from a re-analysis of the deposited data

Results flagged for a closer look

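The share of distal arm peaks with the CTCF core differed between CTCF and the other ZFPs by 9.15 percentage points in an exact permutation test over ZFPs (one-sided p = 0.0323, the smallest possible with 31 ZFPs, adjusted p = 0.226 over 7 measures). It was 10% and 11.1% in the 2 CTCF lists and at most 3.72% as a mean over the lists of any other ZFP.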

How the results depend on the processing

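The number of distal arm peaks, 9430, was 14330 beyond 5 kb, 5158 beyond 20 kb, 16788 with TSSs of protein-coding genes only, 5388 at q of at most 0.01, 2988 at 0.001, 1339 with a peak in both replicates, and 4333 to 5097 with one replicate left out. The 162 shared regions became 263, 87 and 391 under the first 3 of these, 91 at q of at most 0.001, 29 with peaks in both replicates, 44 without tandem repeat peaks and 87 to 93 with one replicate left out. The overlap difference of -9.06 was -3 with protein-coding TSSs (permutation p = 0.224), -4.42 at q of at most 0.001, -4.45 with near-TSS peaks within 10 kb, -16.9 without tandem repeat peaks and 6.01, reversed, without the gaps beside centromeres. It cannot be had with one replicate. The fold difference of -0.13 was -0.08 beyond 20 kb, -0.09 at q of at most 0.001, -0.04 with at least 20 peaks a class, -0.22 with protein-coding TSSs, -0.32 with peaks in both replicates, -0.34 without the gaps, and -0.21 to -0.05 with one replicate left out. The intron share of 55.1% was 44.2% with protein-coding TSSs and 37.2% without the gaps, where the satellite-like share rose from 1.26% to 30.6%. The CTCF core difference of 9.15 stayed between 5.07 and 12.9 under its 22 alternatives and missed the threshold in 1, with peaks in both replicates (11.4, exact permutation p = 0.0526, the smallest 19 ZFPs allow). It was 8.13 to 10.2 with one replicate left out. The tandem repeat difference of 37.4 between distal arm and near-TSS peaks was 59.2 with peaks in both replicates, and 31.7 to 39.8 with one replicate left out. Leaving out TRIM55 and ZMAT5, added after the data were seen, gave 7281 peaks and 162 shared regions. Neither was among the 31 ZFPs tested, so the tests could not change.

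Replicate numbers did not pair the samples on average. Batches were not named, so whether some equally numbered lists share one cannot be told. Over 465 pairs of ZFPs the deviations of equally numbered lists in their calls of shared regions had a mean r of 0.0129, from -0.392 to 0.271. With the replicate number as a block the CTCF core difference was 9.15 (permutation p = 0.00104) and the fold difference -0.13 (permutation p = 0.00081). These p-values took the lists of a ZFP singly, so they cannot stand in for the tests over ZFPs. Over ZFPs the exact permutation test gave p = 0.0323 for the core. The paired permutation test over ZFPs gave p = 0.00688 for the fold. Short lists give wide binomial intervals, and no read total per library was given.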
